A study of Mus musculus with 185 samples.

Results

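Activated Tcf21-traced cells and activated Postn-traced cells are fibroblast-lineage cells of the infarcted mouse heart that carry eGFP after Cre recombination, and their transcriptomes are set against each other here. Members were taken by label and by cell name: 44 cells named Nov4 with the label for activated Tcf21 tracing, and 27 cells named Jul29 with the label for activated Postn tracing. Together they are 71 of the 185 cells of the series. The study sorted non-myocytes that lacked CD31 and CD45 from mouse hearts, caught single cells on the Fluidigm C1 chip and sequenced the RNA of each. The question here is which genes and functions are higher on either side of a lineage label from a resident fibroblast gene and one from a gene of activated fibroblasts.

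All mice were C57BL/6 (backcross N=6) and about 5 months old by the labels, and infarction was made by permanent ligation of the left coronary artery, with cells taken a week later. The Postn-traced cells came from Postn MCM/+; R26-eGFP mice, where Cre is made from the periostin locus and tamoxifen was given after infarction, so eGFP marks cells with Postn activity in that time and their descendants. The Tcf21-traced cells came from Tcf21 MCM/+; R26-eGFP mice, in which tamoxifen ended some days before infarction, so eGFP marks cells with Tcf21 activity in the uninjured heart and their descendants. MCM is a tamoxifen-dependent Cre knocked into 1 copy of the gene named, and eGFP was read by microscopy on the chip. Cells of both captures without eGFP served for comparison: 19 untraced Postn+ cells of Nov4 and 6 of Jul29, and 24 activated Postn- cells of Jul29. The untraced Postn+ and Postn- cells appear to have been told apart by their Postn mRNA, so their Postn level is no finding. Capture, mouse line and tamoxifen schedule all differ between the traced classes and cannot be told apart. No label ties a cell to a mouse, so each class is 1 sample, no test was made, and the SDs given are between cells.

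Resident cardiac fibroblasts express the transcription factor Tcf21 and the receptor Pdgfra, and they keep up a thin interstitial matrix. After an infarct they divide, become activated and lay down collagen, and the activated cells secrete periostin, a matricellular protein that binds collagen and integrins. A fibroblast state found in the adventitia of vessels and other connective tissue carries the surface proteins Sca1 (Ly6a), CD34 and CD55, and is often described as less committed to matrix production than activated fibroblasts.

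Values are log2(TPM+1), with TPM the share of a gene among the transcripts of its cell, on a common scale, and a difference is between class means in log2 units. The number of reads behind each single cell is not known here, so the genes above 5 TPM stand in for depth. The Tcf21-traced cells had 1815 to 5023 such genes with a median of 3134, and the Postn-traced cells had 2155 to 4541 with a median of 3643. In the untraced Postn+ cells the medians were 3361 in Nov4 and 2234.5 in Jul29. The traced classes overlapped over most of their range, with the Postn-traced cells deeper at the median, and the untraced Jul29 cells were the shallowest of the classes used. The study saw more transcripts in activated cells than in quiescent ones. The number of genes above 5 TPM may therefore go with cell state as well as with depth, and these cannot be told apart here.

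As a check of the labels, at least 3 of 9 fibroblast markers were above 5 TPM in each of the 71 traced cells, and Dcn, a collagen-binding proteoglycan, was the most abundant marker at a mean of 12.87 in Tcf21-traced and 13 in Postn-traced cells. No traced cell had 3 markers of endothelial, myeloid, lymphocyte, epicardial or Schwann cells, and Ptprc, which encodes the sorted CD45, was above 5 TPM in no traced cell. Pecam1, which encodes the sorted CD31, was above 5 TPM in 2 of 44 Tcf21-traced and 0 of 27 Postn-traced cells, and Kdr in none. The pericyte list reached 3 markers in 1 Tcf21-traced cell, the cardiomyocyte list in 1 Tcf21-traced cell and the smooth muscle list in 1 Postn-traced cell.

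Within the comparison cells, 1 of the 6 untraced Postn+ cells of Jul29 stood apart. It had 5 of 6 Schwann cell markers above 5 TPM, summing to 4320 TPM, led by Gfra3 at 10.41, while the other 5 cells had none. Its Dcn was 4.06, against 11.89 to 14.46 in the others. Under the capture check, ranges from leaving out each of the 6 cells in turn are given for 18 of the 30 named genes.

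Sex-linked genes split each traced class. Xist, the RNA that silences an X chromosome in female cells, was above 5 TPM in 19 of 44 Tcf21-traced cells (exact Clopper-Pearson 95% interval 28.3% to 59%) and in 11 of 27 Postn-traced cells (22.4% to 61.2%). Y-linked genes without Xist were found in 11 Tcf21-traced and 10 Postn-traced cells. Among all 30 untraced cells of Jul29, Xist was found in 0, which allows a share of up to 11.6%, and 21 had Y-linked genes. So both traced classes held cells of both kinds, whereas the untraced cells that shared a chip with the Postn-traced cells held Y-linked cells and no detectable Xist. In Tcf21-traced cells, 3 had Xist together with a Y-linked gene. Such intervals and limits cover counting error only.

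Relative to Postn-traced cells, Tcf21-traced cells had higher Ly6c1, Ly6a and Cd55 of the Sca1-positive adventitial state, higher S100a4, S100a13 and Anxa1, and higher Uap1 and Ugdh, enzymes that make sugars for matrix glycans. Postn-traced cells had higher Ptn and Mdk, a pair of related growth factors, higher Dhrs3 of retinoid metabolism, higher microfibril proteins Mfap4 and Mfap2, higher Tnc and Cthrc1, and higher fibrillar collagens. Of these, Ly6c1, S100a13, Ugdh, Ptn and Dhrs3 also differed the same way between untraced Postn+ cells of the captures, by more than 1 relative to the median gene. Mdk, Tnc, Cthrc1 and the collagen Col1a1 differed there by more than 1 the opposite way. Of 4877 genes above 5 TPM in at least 25% of cells, averaged over both classes, 51 were more than 2 log2 units higher in Tcf21-traced cells (1.05%) and 96 in Postn-traced cells (1.97%). This balance turned among the 9 and 13 cells of a shared depth range, with 374 against 293, and with only the 39 Tcf21-traced cells that had Postn, where 51.1% were on the Tcf21-traced side. It was near even, at 50.4%, when the untraced difference without the cell with Schwann markers was subtracted and both were centred. More than 1 unit apart were 409 genes toward the Tcf21-traced side (8.39%) and 720 toward the Postn-traced side (14.8%). The median gene differed by -0.13, and the middle 50% of genes lay between -0.68 and 0.41.

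The largest difference toward Tcf21-traced cells was in Ly6c1, a small glycolipid-anchored surface protein of the Ly6 family. It ran from 0.00 through a median of 8.65 to 12.25 in Tcf21-traced cells, and from 0.00 through 0.00 to 10.40 in Postn-traced cells, a difference of means of 4.66. The ranges overlap fully, and what differs is the share of cells: 28 of 44 against 4 of 27 were above 5 TPM. Among cells above 5 TPM alone, the mean was 9.21 in Tcf21-traced and 8.66 in Postn-traced cells, so the cells that had the RNA had similar amounts. Reads of Ly6c1 can be shared with its near-identical neighbour Ly6c2, so its level is uncertain by that much.

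Ly6a, which encodes Sca1, was at 0.00, 9.97 and 12.57 (lowest, median and highest) in Tcf21-traced cells and at 0.00, 8.58 and 11.92 in Postn-traced cells. It was above 5 TPM in 39 of 44 and 16 of 27 cells, so nearly every Tcf21-traced cell had it and a large minority of Postn-traced cells did not. Cd55, a brake on complement and a marker of the same adventitial state, was at 0.00, 6.00 and 11.63 in Tcf21-traced cells. In Postn-traced cells it was at 0.00, 0.00 and 9.35, a difference of means of 3.02. Here 34 of the 44 Tcf21-traced cells lay above the Postn-traced median, which was 0.00, and the ranges overlap. Cells with Ly6c1 mostly had Ly6a too: of 28 Tcf21-traced cells with Ly6c1, 27 also had Ly6a, and in Postn-traced cells all 4 did. The reverse held less, since 12 cells of each class had Ly6a without Ly6c1. As 39 of 44 Tcf21-traced cells had Ly6a, most cells with Ly6c1 would have it in any case.

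Smoc2, a secreted calcium-binding matricellular protein, was at 0.00, 7.56 and 11.80 in Tcf21-traced cells and at 0.00, 4.58 and 10.15 in Postn-traced cells, 2.76 higher on the Tcf21-traced side. Slc43a3, a purine nucleobase transporter, was above 5 TPM in 41 of 44 Tcf21-traced and 19 of 27 Postn-traced cells, also 2.76 apart. Most Tcf21-traced cells were high for both genes, and the Postn-traced cells spread from 0.00 upward.

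Enzymes of nucleotide sugar synthesis were among the named genes. Uap1, which makes UDP-N-acetylglucosamine, was at 0.00, 5.92 and 11.10 in Tcf21-traced cells and at 0.00, 1.33 and 8.99 in Postn-traced cells, with a difference of 2.98. Ugdh, which makes UDP-glucuronic acid, was at 0.00, 7.5 and 12.09 against 0.00, 4.37 and 9.29, with a difference of 2.83. Both sugars are the building blocks of hyaluronan. For each enzyme 38 of 44 Tcf21-traced cells were above 5 TPM, against 12 of 27 Postn-traced cells for Uap1 and 17 for Ugdh.

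The other named genes of this side were between 2.64 and 3.17 higher. They were S100a4, a calcium-binding protein also called FSP1, Ass1, which makes argininosuccinate from citrulline, Pla1a, a phosphatidylserine phospholipase, Adamtsl3, a matrix protein related to the ADAMTS proteases, Creld2, an endoplasmic reticulum stress protein, Serpina3n, a secreted protease inhibitor, Klf10, a transcription factor induced by TGF-beta, and the noncoding transcript Gm14005. Klf10 was the lowest of the 15 at 2.64. Each was above 5 TPM in more than 50% of Tcf21-traced cells, and in Postn-traced cells from 5 of 27 for S100a4 and Pla1a to 16 of 27 for Serpina3n.

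**Figure D1:**
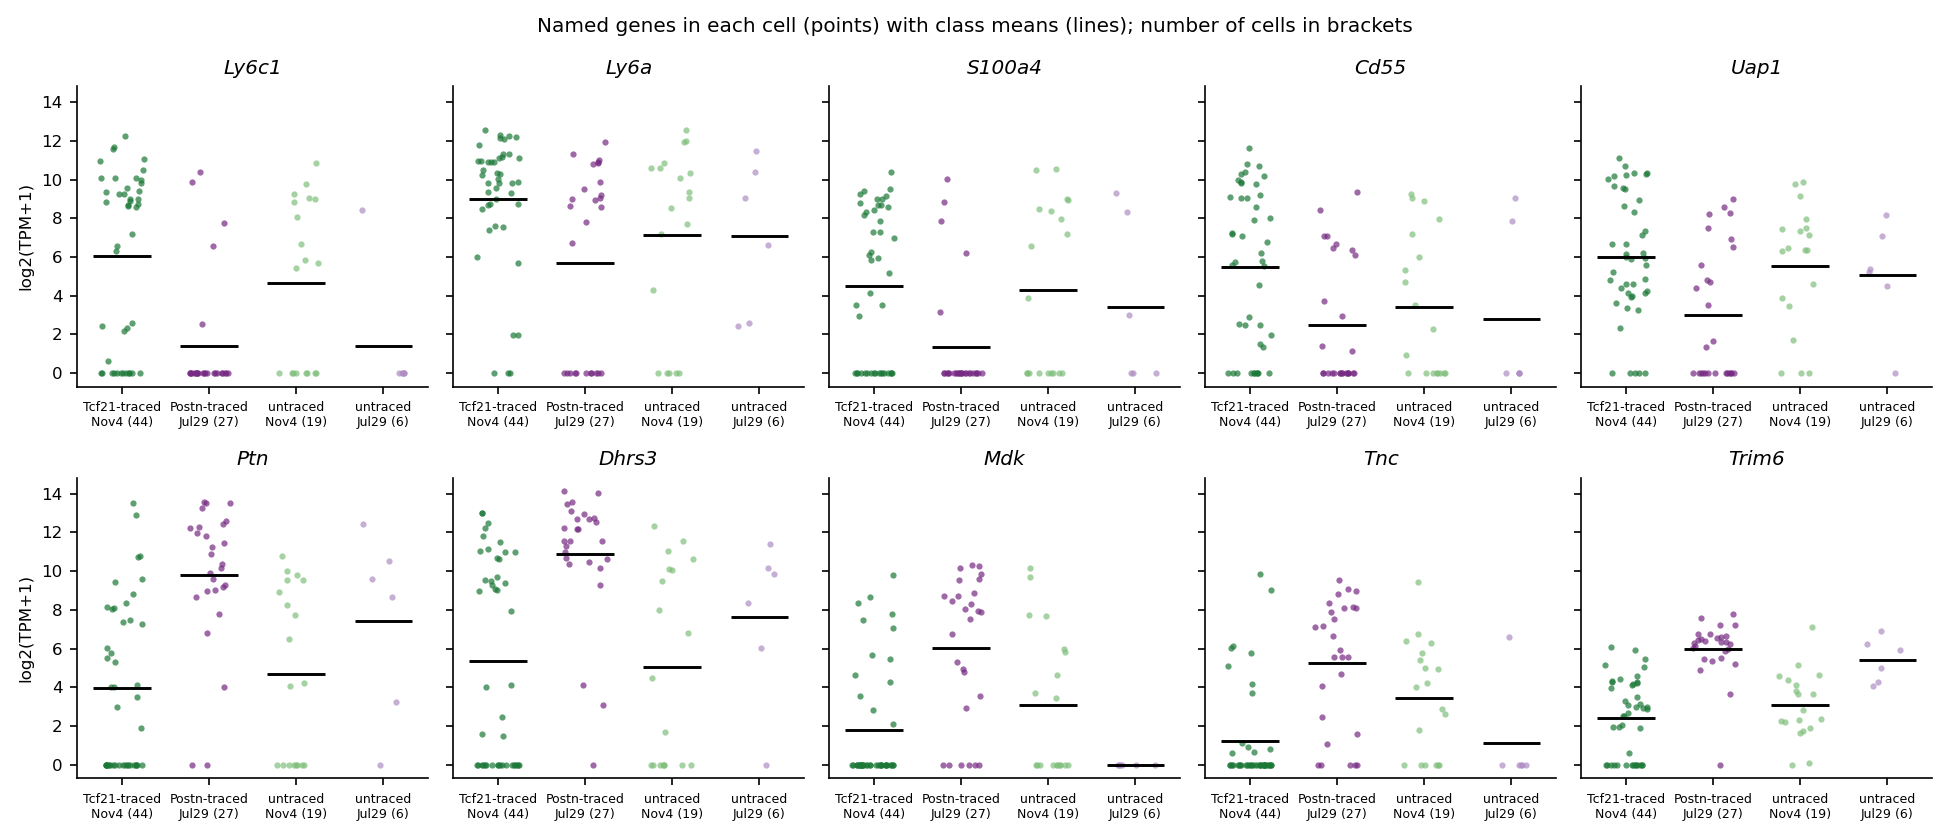
Values of 10 named genes, log2(TPM+1), in each cell of the traced classes and of the untraced Postn+ cells of the same captures. Points are cells, lines are class means and numbers in brackets are cells. Ly6c1, S100a4 and Cd55 are at 0 in most Postn-traced cells, Trim6 is high in both Jul29 classes, and Mdk is at 0 in all 6 untraced Jul29 cells.

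On the other side Ptn, the heparin-binding growth factor pleiotrophin, had the largest difference. It was at 0.00, 3.24 and 13.53 in Tcf21-traced cells and at 0.00, 10.36 and 13.56 in Postn-traced cells, 5.85 higher in the latter. All but 2 of the 27 Postn-traced cells were above 5 TPM and 23 of 44 Tcf21-traced cells were, and the level among such cells also differed, at 10.58 against 7.47. Its relative Mdk (midkine) was at 0.00, 0.00 and 9.79 against 0.00, 7.90 and 10.33, a difference of 4.25. Mdk was above 5 TPM in 12 of 44 Tcf21-traced and 21 of 27 Postn-traced cells.

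Dhrs3 reduces retinaldehyde to retinol and is itself induced by retinoic acid. In Tcf21-traced cells it was at 0.00, 4.06 and 13, and in Postn-traced cells at 0.00, 11.57 and 14.13, with a difference of 5.55. The Tcf21-traced cells fell into a low and a high group, since 23 of 44 were above 5 TPM. The mean was 10 among them, against 11.32 in the 26 Postn-traced cells above 5 TPM. Ptn and Dhrs3 went together in the Tcf21-traced cells: 18 cells had both, 16 had neither, 5 had Ptn alone and 5 had Dhrs3 alone. Across the 44 cells their Pearson correlation was 0.66 and their Spearman correlation 0.64, and across the 27 Postn-traced cells, of which 24 had both, these were -0.01 and 0.05. Both went in part with depth in Tcf21-traced cells, with Pearson correlations of 0.43 and 0.52 with the genes detected, and cells of a class share a chip.

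Several proteins of microfibrils and provisional matrix were higher in Postn-traced cells. Mfap4, a microfibril-associated protein that binds elastin, was at 0.00, 6.56 and 10.50 in Tcf21-traced cells and at 1.87, 10.53 and 12.21 in Postn-traced cells. Its difference was 4.03, and 0 of the 44 Tcf21-traced cells exceeded the Postn-traced median. Mfap2, which sits on fibrillin microfibrils and binds TGF-beta, was at 0.00, 8.09 and 11.62 against 0.00, 10.12 and 11.70. The ranges of Mfap2 overlap, with 4 of 44 Tcf21-traced cells above the Postn-traced median. Both differences were smaller among the cells of a shared depth range, as given with the capture check.

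Tnc, the matricellular protein tenascin-C of healing tissue, was above 5 TPM in 8 of 44 Tcf21-traced cells and 19 of 27 Postn-traced cells. Cthrc1, a secreted glycoprotein of activated fibroblasts, was at 0.00, 9.24 and 12.82 in Tcf21-traced cells and at 1.85, 10.85 and 13.15 in Postn-traced cells, 3.56 higher in the latter. Among Tcf21-traced cells, 13 had no Cthrc1 above 5 TPM. The remaining 31 had a mean of 9.71, against 10.84 in the 26 Postn-traced cells that had it. Cthrc1 moved with depth in Tcf21-traced cells, with a correlation of 0.74 with the genes detected. Its difference among the 9 and 13 cells of a shared depth range is given with the capture check.

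Trim6, a ubiquitin ligase, was at 0.00, 2.76 and 6.09 in Tcf21-traced cells and at 0.00, 6.32 and 7.79 in Postn-traced cells, 3.56 higher in the latter. Its spread was the narrowest of the 30 genes in Postn-traced cells, with an SD of 1.47, and 0 of 44 Tcf21-traced cells exceeded the Postn-traced median. The remaining genes of this side were 2.88 to 4.70 higher: Pdlim3, a Z-disc and actin-binding protein, Nrep, a small protein of regenerating nerve and of wound fibroblasts, Gucy1a3, a subunit of the nitric oxide receptor guanylate cyclase, Sh3pxd2b, a scaffold of podosomes, and the transcripts AK205379, AK210533 and AK138792. AK205379 and AK210533 varied together over the cells, with a correlation of 0.999 in both classes, so their reads may be shared, and each is counted as a gene of its own below.

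Promoters of the named genes are shown because the genes of a side differ the same way between the classes, by which they were chosen, although not all vary together from cell to cell. RefSeq promoters of build GRCm38.p6, windows of 300 bases that hold the start, were found for 9 named genes of the Tcf21-traced side and 7 of the Postn-traced side. On both strands 12 motifs were searched, each given here. The TATA box letters TATAAA were in 2 promoters of the Tcf21-traced side, 1 of the other and 13.6% of all 32851 promoters. The letters GGAATG, to which TEAD factors bind, were in 0 promoters of the Tcf21-traced side, in 3 of the Postn-traced side and in 14.7% of all. The E-box letters CANNTG, bound by factors of the Tcf21 class, were in 5 of 9 and 6 of 7, against 72.3% of all promoters. The motifs TTCNNNGAA (8.3% of all promoters), TGANTCA (7.81%), GTCTAGAC (0.213%), the CArG box (1.63%) and the direct repeat 5 retinoic acid element (0.0974%) were in none of these promoters. CAGACA was in 1 and 2 promoters (21% of all), AGGTCA in 2 and 1 (16.3%), TGGGAA in 3 and 4 (25.6%) and the NF-kB site in 1 and 1 (4.51%), Tcf21-traced side first. Those printed were chosen after the search and a match is only a match of letters. Capitals mark TATAAA in the first 2 sequences, Ly6c1 at chr15:75048788-75049087 (minus strand) and S100a4 at chr3:90603520-90603819 (plus strand), and GGAATG on either strand in the others, Pdlim3 at chr8:45885237-45885536, Mfap2 at chr4:141010174-141010473 and Sh3pxd2b at chr11:32347590-32347889 (plus strand).
Ly6c1: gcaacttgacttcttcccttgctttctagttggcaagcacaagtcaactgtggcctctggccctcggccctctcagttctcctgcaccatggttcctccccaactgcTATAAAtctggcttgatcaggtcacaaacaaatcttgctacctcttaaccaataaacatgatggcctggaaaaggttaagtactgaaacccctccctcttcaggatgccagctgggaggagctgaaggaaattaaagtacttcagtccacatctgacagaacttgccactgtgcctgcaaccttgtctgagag
S100a4: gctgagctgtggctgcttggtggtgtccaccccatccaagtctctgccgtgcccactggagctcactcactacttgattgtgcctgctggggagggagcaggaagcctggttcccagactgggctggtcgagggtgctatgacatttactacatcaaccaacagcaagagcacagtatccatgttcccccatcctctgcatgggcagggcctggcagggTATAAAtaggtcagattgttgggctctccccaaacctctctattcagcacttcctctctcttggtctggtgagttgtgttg
Pdlim3: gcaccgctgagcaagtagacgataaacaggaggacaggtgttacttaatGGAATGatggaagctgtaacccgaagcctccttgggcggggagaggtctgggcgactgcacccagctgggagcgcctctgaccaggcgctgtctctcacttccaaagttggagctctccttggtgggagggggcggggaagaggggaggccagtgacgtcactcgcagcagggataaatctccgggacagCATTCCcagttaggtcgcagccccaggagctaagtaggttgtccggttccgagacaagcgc
Mfap2: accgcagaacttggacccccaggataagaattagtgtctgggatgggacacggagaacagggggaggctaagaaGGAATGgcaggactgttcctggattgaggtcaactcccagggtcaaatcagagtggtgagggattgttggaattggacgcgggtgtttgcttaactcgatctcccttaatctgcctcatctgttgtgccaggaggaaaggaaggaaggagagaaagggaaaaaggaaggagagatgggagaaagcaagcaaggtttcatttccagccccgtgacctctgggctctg
Sh3pxd2b: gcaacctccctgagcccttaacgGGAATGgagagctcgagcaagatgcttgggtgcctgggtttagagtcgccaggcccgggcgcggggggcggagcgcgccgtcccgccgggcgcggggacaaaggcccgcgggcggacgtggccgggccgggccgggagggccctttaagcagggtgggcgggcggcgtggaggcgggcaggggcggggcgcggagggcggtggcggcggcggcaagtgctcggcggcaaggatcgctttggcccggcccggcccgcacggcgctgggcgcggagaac

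Counted per cell, the split was wide. Of the 15 named genes of the Tcf21-traced side, a Tcf21-traced cell had 4 to 15 above 5 TPM with a median of 11, and a Postn-traced cell had 1 to 11 with a median of 5. Of the 15 of the Postn-traced side, a Tcf21-traced cell had 0 to 10 with a median of 6, and a Postn-traced cell had 8 to 15 with a median of 13. These genes were chosen on this contrast, so the separation follows from the choice. The untraced cells did not enter it, and their counts went partly with the capture: on the Tcf21-traced side the medians were 10 in untraced Postn+ cells of Nov4 and 5 in those of Jul29, near the traced class of each chip. The activated Postn- cells of Jul29 did not follow this, with a median of 8 and a range of 3 to 12. On the Postn-traced side the medians were 7 and 8 in the untraced Postn+ cells and 4.5 in the Postn- cells, below the 13 of the Postn-traced cells.

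The capture check compares untraced Postn+ cells of Nov4 with those of Jul29, cells that belong to neither traced class. Xist was found in 12 of 19 of the former and 0 of 6 of the latter, so sex and possibly mouse differ along with capture. The Nov4 cells lacked the eGFP of the Tcf21 tracer and the Jul29 cells that of the Postn tracer. Averaged over a list of quiescent fibroblast genes given below, the medians were 4.63 in Nov4 and 7.16 in Jul29, so cell state differed too. Capture, sex, mouse and cell state cannot be told apart here. The median gene of the untraced Postn+ classes differed by 0.89, so each gene is given relative to that median. On this scale 1188 genes were more than 1 higher in Nov4 (24.4%) and 1230 were more than 1 lower (25.2%), a wider spread than between the traced classes, with 6 cells on the Jul29 side. Across the 4877 genes, which are not independent replicates, the traced and untraced differences had a Pearson correlation of 0.15 and a Spearman correlation of 0.14. Of the 51 genes more than 2 higher in Tcf21-traced cells, the untraced difference was more than 1 the same way in 18, within 1 in 23 and more than 1 the opposite way in 10. For the 96 of the Postn-traced side these counts were 43, 34 and 19.

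Ly6c1, Ass1, Ugdh, Gm14005 and Serpina3n were also more than 1 higher in untraced Nov4 cells. Ugdh went furthest, at 6.04 in untraced Nov4 and 1.49 in untraced Jul29 cells, 3.66 relative to the median gene and 3.26 to 4.27 with any 1 of the 6 cells left out. Its untraced difference was thus larger than its traced difference. For Ly6c1 the untraced value was 2.37, with a range of 1.98 to 3.55 on leaving out a cell. For Serpina3n it was 2.27 (1.08 to 3.32), for Ass1 2.64 (2.30 to 3.09) and for Gm14005 1.5 (0.92 to 2.58). In these genes the difference of the traced classes and that of the untraced cells cannot be told apart.

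For 9 of the 15, namely Ly6a, S100a4, Cd55, Uap1, Pla1a, Adamtsl3, Slc43a3, Creld2 and Klf10, the untraced cells of the captures were within 1 of each other. On leaving out a cell, Pla1a, Slc43a3, Adamtsl3 and Creld2 went past 1 at an end of their range. Ly6a had a mean of 7.11 in untraced Nov4 and 7.10 in untraced Jul29 cells. Smoc2 went the opposite way, at 4.90 in untraced Nov4 and 6.82 in untraced Jul29 cells, -2.80 relative to the median gene (-3.86 to -2.15 on leaving out a cell). With a cell left out, Ly6a ran from -1.67 to -0.10, Cd55 from -0.85 to 0.74 and Uap1 from -1.30 to 0.00. So Ly6a, Cd55, Uap1 and Smoc2 were higher in Tcf21-traced cells without a like difference between these untraced cells. S100a4 was less steady, from -0.73 to 1.27, since the cell with Schwann markers had 9.31. With the activated Postn- cells of Jul29 added to the check, Ly6a, Cd55, Uap1, Pla1a, Smoc2 and Slc43a3 were more than 1 higher in untraced Jul29 cells. Nov4 has no class labelled Postn-, so this wider check sets Postn+ cells against mostly Postn- cells and is not of capture alone. S100a4 and Creld2 were then more than 1 higher in untraced Nov4 cells, S100a4 by 1.98 relative to the median gene. Ly6c1 was then within 1, since 14 of the 24 Postn- cells of Jul29 had it above 5 TPM, so its low level on that chip was not shared by all cells there.

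Among genes of the Postn-traced side, Ptn, Dhrs3, Trim6, Gucy1a3, AK205379, AK210533 and AK138792 were also more than 1 higher in untraced Jul29 cells. With a cell left out, Nov4 minus Jul29, Ptn ran from -5.18 to -2.82, Dhrs3 from -4.86 to -2.92, Trim6 from -3.60 to -2.79 and Gucy1a3 from -1.72 to -0.31, so only the last came within 1. Trim6 was at 5.41 in untraced Postn+ cells and 5.68 in Postn- cells of Jul29, close to the 5.99 of the traced cells, and at 3.07 in untraced Nov4 cells. It was above 5 TPM in all 6 and in 22 of 24 of those Jul29 cells, so Trim6 was high across the chip whatever the lineage label. Dhrs3 was 7.62 in untraced Postn+ cells and 4.73 in Postn- cells of Jul29, below the 10.90 of the traced cells. Ptn was 7.41 in untraced Postn+ cells of Jul29 but 0.93 in the Postn- cells of that chip, so its level on 1 chip ran from near 0 to the highest of the classes. The Postn- cells have no match in Nov4. When they were added to the check, the untraced difference of Ptn turned to 1.78 toward Nov4 and that of Dhrs3 came within 1. Mfap4 and Mfap2 were then more than 1 higher in untraced Nov4 cells, by 1.65 and 3.63, opposite to the traced difference.

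Mfap4, Pdlim3, Nrep, Mfap2 and Sh3pxd2b were within 1 between the untraced cells of the captures, and on leaving out a cell all but Nrep went past 1 at an end of their range. Mdk and Tnc were more than 1 higher in untraced Nov4 cells, opposite to the traced difference, with 1.99 to 2.34 and 1.14 to 2.34 on leaving out a cell. Cthrc1 was 1.25 higher, but 0.17 to 2.86 on leaving out a cell, and Mfap4 at 0.74 ran from 0.01 to 1.79. Mdk was listed at 0 in all 6 untraced Postn+ cells of Jul29, against 3.10 in untraced Nov4 and 6.02 in Postn-traced cells. Tnc was at 1.10 in untraced Jul29 and 3.45 in untraced Nov4 cells, and only 1 of the 6 cells had it above 5 TPM. Within their own chip the Postn-traced cells were thus higher than untraced Postn+ cells by 6.02 for Mdk, 4.15 for Tnc, 5.97 for Mfap4 and 5.64 for Cthrc1. Differences within a chip are between class means and not relative to the median gene. The untraced Jul29 cells were also shallower, with a median of 2234.5 detected genes against 3643, and include the cell with Schwann markers. Within Nov4, the Tcf21-traced cells differed from untraced Postn+ cells by -1.33 for Mdk, -2.23 for Tnc, 0.31 for Mfap4 and -0.05 for Cthrc1. Restricting both traced classes to the 9 and 13 cells with 3152 to 3954 detected genes left Cthrc1 at -0.70, Mfap4 at -1.16 and Mfap2 at -1.81, Tcf21-traced minus Postn-traced. These differences were thus smaller among cells with like numbers of detected genes. On the other side Smoc2 was also smaller there, at 1.64, while Ly6c1 (7.03), Gm14005 (5.88), Cd55 (5.67), Uap1 (4.77) and Serpina3n (4.39) were larger. The role of depth or of cell state was not tested.

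**Figure D2:**
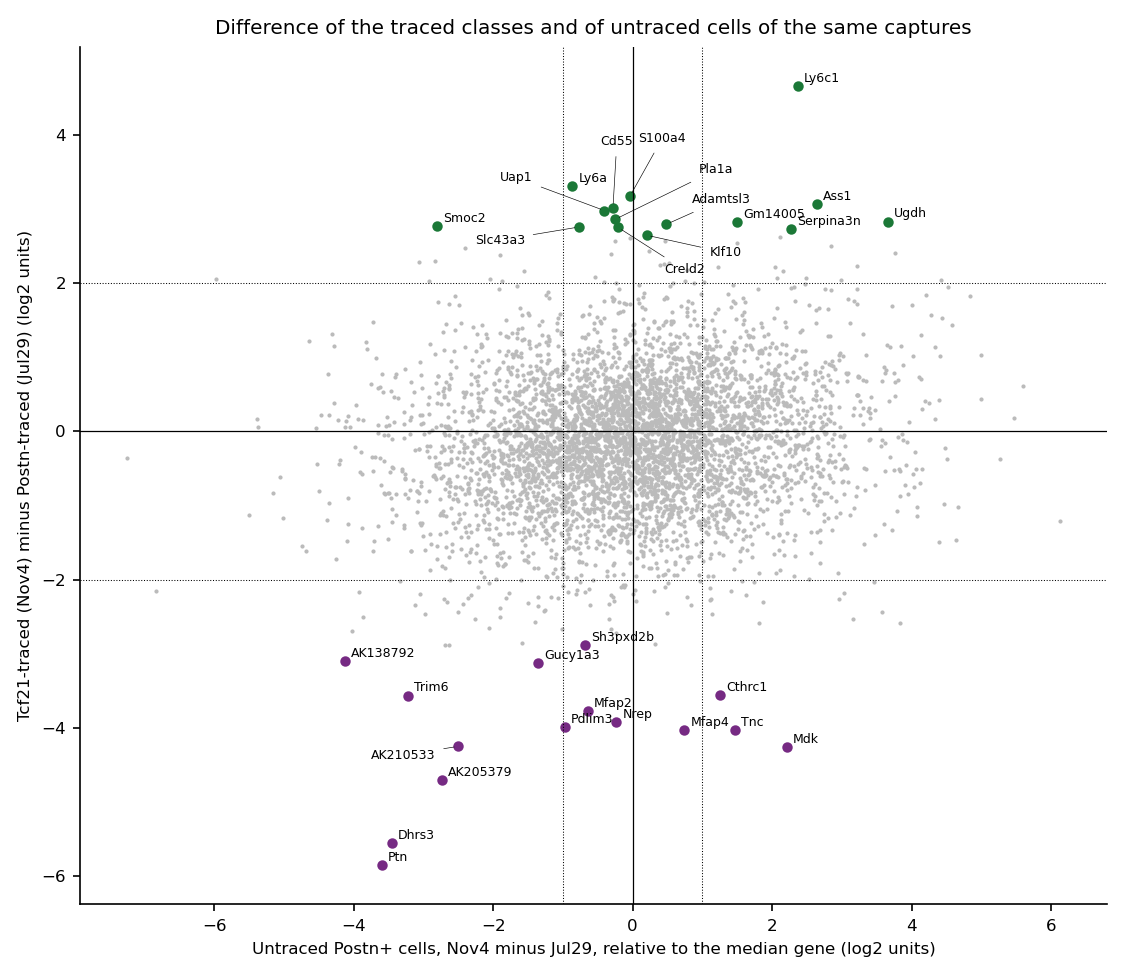
Difference of the traced classes (vertical axis, log2 units) against the difference of untraced Postn+ cells of the same captures relative to the median gene (horizontal axis, log2 units). Grey points are the 4877 genes, coloured points the 30 named genes, and dotted lines mark 2 units between traced and 1 unit between untraced cells. Genes such as Ptn, Dhrs3, Trim6 and Ugdh lie along the direction shared with the untraced cells, whereas Ly6a, S100a4 and Cd55 lie near its middle and Mdk, Tnc and Smoc2 on the other side.

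Functional lists were counted by tested members more than 1 unit apart, read against 8.39% and 14.8% of all tested genes, and counts below are out of tested members unless listed genes are named. The lists were chosen with earlier results of these data known, so their counts are a description. There were 35 lists, and in 30 of them the median of the listed members lay within 0.5 of the median of all tested genes. Of the others 4 lay above and 1 below.

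The Sca1-positive adventitial list had a one-sided count toward Tcf21-traced cells. Of its 15 genes 10 were tested, 6 were more than 1 higher in Tcf21-traced cells and none in Postn-traced cells, with a median of 0.94 over the list. Beside Ly6c1, Ly6a and Cd55 these were Ackr3, a scavenger receptor for CXCL12 (1.36), Pi16, a secreted protein of adventitial fibroblasts (1.31), and Has1, a hyaluronan synthase (1.08). Averaged over the 15 genes, Tcf21-traced cells were at 0.66, 4.09 and 9.59 (lowest, median, highest) and Postn-traced cells at 0.79, 3.01 and 5.58. In 14 of the 44 Tcf21-traced cells the average was above that of every Postn-traced cell, while the lower ends overlap. The untraced Postn+ cells had a median average of 4.23 in Nov4 and 3.19 in Jul29, but their means were closer, at 3.84 and 3.48, than the 4.64 and 3.26 of the traced classes. Relative to the median gene, the untraced difference over this list was -0.51 at the median, the opposite way, so the result of the capture check depends on the scale. The Postn- cells of Jul29 had a median of 4.84, the highest of these classes. Under the alternatives the median was below 0 in cells with Xist alone, at -0.17.

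The quiescent cardiac fibroblast list had 4 of 11 genes more than 1 higher in Tcf21-traced cells and 2 in Postn-traced cells. Smoc2, Entpd2, an ectonucleotidase (2.28), Gsn, the actin-severing gelsolin (1.71), and Gstm1, a glutathione transferase (1.2), were on the Tcf21-traced side. Dpt, a collagen-binding matrix protein, was 1.32 higher in Postn-traced cells and Pdgfra was 1.08 higher, while Tcf21 itself differed by 0.09. Its median of 0.84 turned to -0.70 among the cells of the shared depth range and to 0.00 with medians over cells. Untraced Jul29 cells were higher for this list than untraced Nov4 cells, by 2.75 at the median relative to all genes, the reverse of the traced classes.

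Of 14 tested S100 proteins and annexins, calcium-dependent regulators of membranes and cytoskeleton, 6 were more than 1 higher in Tcf21-traced cells and none in Postn-traced cells. After S100a4 came S100a13 (1.57), S100a6 (1.36), Anxa1 (1.32), Anxa7 (1.18) and S100a10 (1.13). Other members lay within 1, such as Anxa2 (0.32), Anxa5 (-0.37) and S100a1 (-0.98). The median of the listed genes was 0.56 over all cells, 0.58 in cells with Xist and 0.56 in cells with Y-linked genes. It was -1 after subtracting the untraced difference and 0.02 when both differences were centred, and S100a13, S100a6 and S100a10 were also more than 1 higher in untraced Nov4 cells.

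Chemokines and cytokines had 5 of 8 tested genes more than 1 higher in Tcf21-traced cells and none in Postn-traced cells. Among the listed genes found in too few cells to be tested, Cxcl2 (1.31) and Cxcl5 (1.22), which draw neutrophils, were higher in Postn-traced cells. The 5 were Ccl2, which draws monocytes (2.04), the macrophage growth factor Csf1 (1.47), Cxcl16 (1.19), Il6 (1.13) and Ccl7 (1.08), with a list median of 0.01. Ccl2 was 4.42 higher in untraced Nov4 than untraced Jul29 cells relative to the median gene, while Csf1, Il6 and Ccl7 were more than 1 lower. Integrins and matrix receptors had 4 of 11 on this side, among them Itga5 of the fibronectin receptor (1.65) and the hyaluronan receptor Cd44 (1.27), and 1 on the other, the collagen receptor subunit Itga11 (1.27). The basement membrane list had 1 of 11, Col4a1, a chain of the collagen IV network (2.21), and the protease list had Timp3 (2.57) and Adamts5 (1.45). Relative to the median gene, Itga5 (2.80), Col4a1 (1.22) and Adamts5 (1.58) were also higher in untraced Nov4 cells, while Cd44, Itga11 and Timp3 were within 1.

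Metabolic lists were mixed. Of 63 genes of oxidative phosphorylation, all tested, 9 were more than 1 higher in Tcf21-traced cells, led by Cox6a1 (1.53), and 3 in Postn-traced cells, led by Ndufa2 (1.69), with a median of 0.35. This median was 0.56 in cells with Xist, -0.58 in cells with Y-linked genes and -1.12 after centred subtraction of the untraced difference, so its sign was not steady. Among 28 genes of the endoplasmic reticulum and secretion, 5 were more than 1 higher in Tcf21-traced cells, including the chaperones Hsp90b1 (1.70) and Hspa5 (1.24). The largest difference of this list was on the other side, where 3 were higher in Postn-traced cells, led by Ssr2, a subunit of the translocon-associated complex (2.29), and Tmed3, a cargo receptor (1.32). Cytosolic ribosomal proteins, with 81 of 83 tested, had 1 gene on each side and a median of -0.01.

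On the Postn-traced side, fibrillar collagens had 4 of 8 genes more than 1 higher in Postn-traced cells and none in Tcf21-traced cells. These were Col3a1 (1.61), Col11a1 (1.48), Col1a1 (1.39) and Col1a2 (1.29), the chains of collagens I, III and XI. Averaged over the 11 listed genes, Tcf21-traced cells were at 1.95, 4.49 and 6.12 (lowest, median, highest) and Postn-traced cells at 3.65, 5.29 and 6.57. The classes overlap, with 9 of 44 Tcf21-traced cells below the lowest Postn-traced cell. The median of -0.84, Tcf21-traced minus Postn-traced, was below 0 under each alternative tried, from -3.45 to -0.63. Untraced Nov4 cells averaged 5.06, above the Tcf21-traced cells of their chip, but appear to have been picked by their Postn mRNA. In Jul29 the untraced Postn+ cells averaged 4.16 and the Postn- cells 3.20, below the 5.27 of the Postn-traced cells. The cause was not tested.

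Growth factors had 5 of 8 genes more than 1 higher in Postn-traced cells and none in Tcf21-traced cells. Beside Ptn and Mdk these were Figf, also called Vegfd, a lymphatic growth factor (2.19), Angptl2 (1.38) and Gas6, the ligand of the Axl receptors (1.38). Relative to the median gene, Angptl2 was also more than 1 higher in untraced Jul29 cells, Gas6 was more than 1 higher in untraced Nov4 cells, and Figf was within 1. The highest of the untraced and Tcf21-traced cells reached the Postn-traced range, but 40 of 44 Tcf21-traced cells averaged below the Postn-traced median over this list.

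Collagen maturation had 5 of 20 genes more than 1 higher in Postn-traced cells, led by the collagen chaperone Fkbp10 (2.53) and the prolyl hydroxylase subunit P4ha3 (2.01) and including the cross-linking enzyme Lox (1.04). It had 2 in Tcf21-traced cells, Pcolce2 (1.93), which helps cleave procollagen, and Crtap (1.29). The elastic fibre and microfibril list had 4 of 11 on the Postn-traced side, with Efemp2 (2.03) and fibrillin-2, Fbn2 (1.68), after Mfap4 and Mfap2, and 1 on the other. Matricellular genes divided evenly, 5 of 15 each way. Tnc, Cthrc1, Fn1 (2.43), Thbs2 (2.24) and Postn (1.84) were higher in Postn-traced cells, and Smoc2, Vcan (1.67), Sparcl1 (1.26), Thbs3 (1.11) and Ctgf (1.06) in Tcf21-traced cells. The Postn-traced cells were traced through Postn and labelled Postn+, so their higher Postn is no finding, although it is counted here. Small leucine-rich proteoglycans were divided as well, with Ogn (2.47) and Ecm2 (1.76) on the Postn-traced side and Prelp, 2.47 higher, on the Tcf21-traced side. Relative to the median gene, Pcolce2, Crtap, Vcan and Ctgf were also more than 1 higher in untraced Nov4 cells, and Thbs2, Ogn and Ecm2 in untraced Jul29 cells. Opposite to the traced difference, Fkbp10, Lox, Efemp2 and Fn1 were more than 1 higher in untraced Nov4 cells, and Sparcl1 and Prelp in untraced Jul29 cells. P4ha3, Fbn2 and Thbs3 were within 1.

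In the lysosome list 5 of 16 were higher in Postn-traced cells, among them Ctsk, a protease that cleaves collagen (1.36). In the Wnt list 3 of only 4 tested genes were, and all 3 encode secreted antagonists or modulators, Frzb (2.13), Dkk3 (1.41) and Sfrp1 (1.14). In the TGF-beta list 3 of 14 were, little above the background: Tgfb3 (1.82) and the latent binding proteins Ltbp1 (1.51) and Ltbp3 (1.29), while Ltbp4 was 1.22 higher in Tcf21-traced cells. The contractile list had 3 of 18, near the background, Myl9 (2.23), Tpm2 (1.91) and Zyx (1.28), with Flna, an actin cross-linker, 1.14 higher in Tcf21-traced cells. Acta2, smooth muscle actin, was 0.51 higher in Postn-traced cells. Among the 9 and 13 cells of the shared depth range it was higher in Tcf21-traced cells. The cartilage and bone list had Cilp, a matrix protein that binds TGF-beta (2.72), and Matn2 (1.84), and the retinoid list had Aldh1a2, which makes retinoic acid (1.14), beside Dhrs3. Relative to the median gene, Ctsk, Sfrp1, Tgfb3, Ltbp1 and Matn2 were also more than 1 higher in untraced Jul29 cells. Tpm2 and Zyx were more than 1 higher in untraced Nov4 cells. Frzb, Dkk3, Ltbp3, Myl9, Cilp and Aldh1a2 were within 1. Of 22 immediate early and stress genes, 5 were more than 1 higher in Postn-traced cells, including Nr4a1 (2.16) and Egr1 (1.23), but the list median was -1.69 in cells with Xist and 0.61 in cells with Y-linked genes. Relative to the median gene, untraced Nov4 minus Jul29 was -3.92 for Nr4a1, -3.28 for Egr2, -2.58 for Egr1 and -3.45 for Btg2. Only Ier3 of the 5 went the other way (2.03), and the list median was -1.39.

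**Figure D3:**
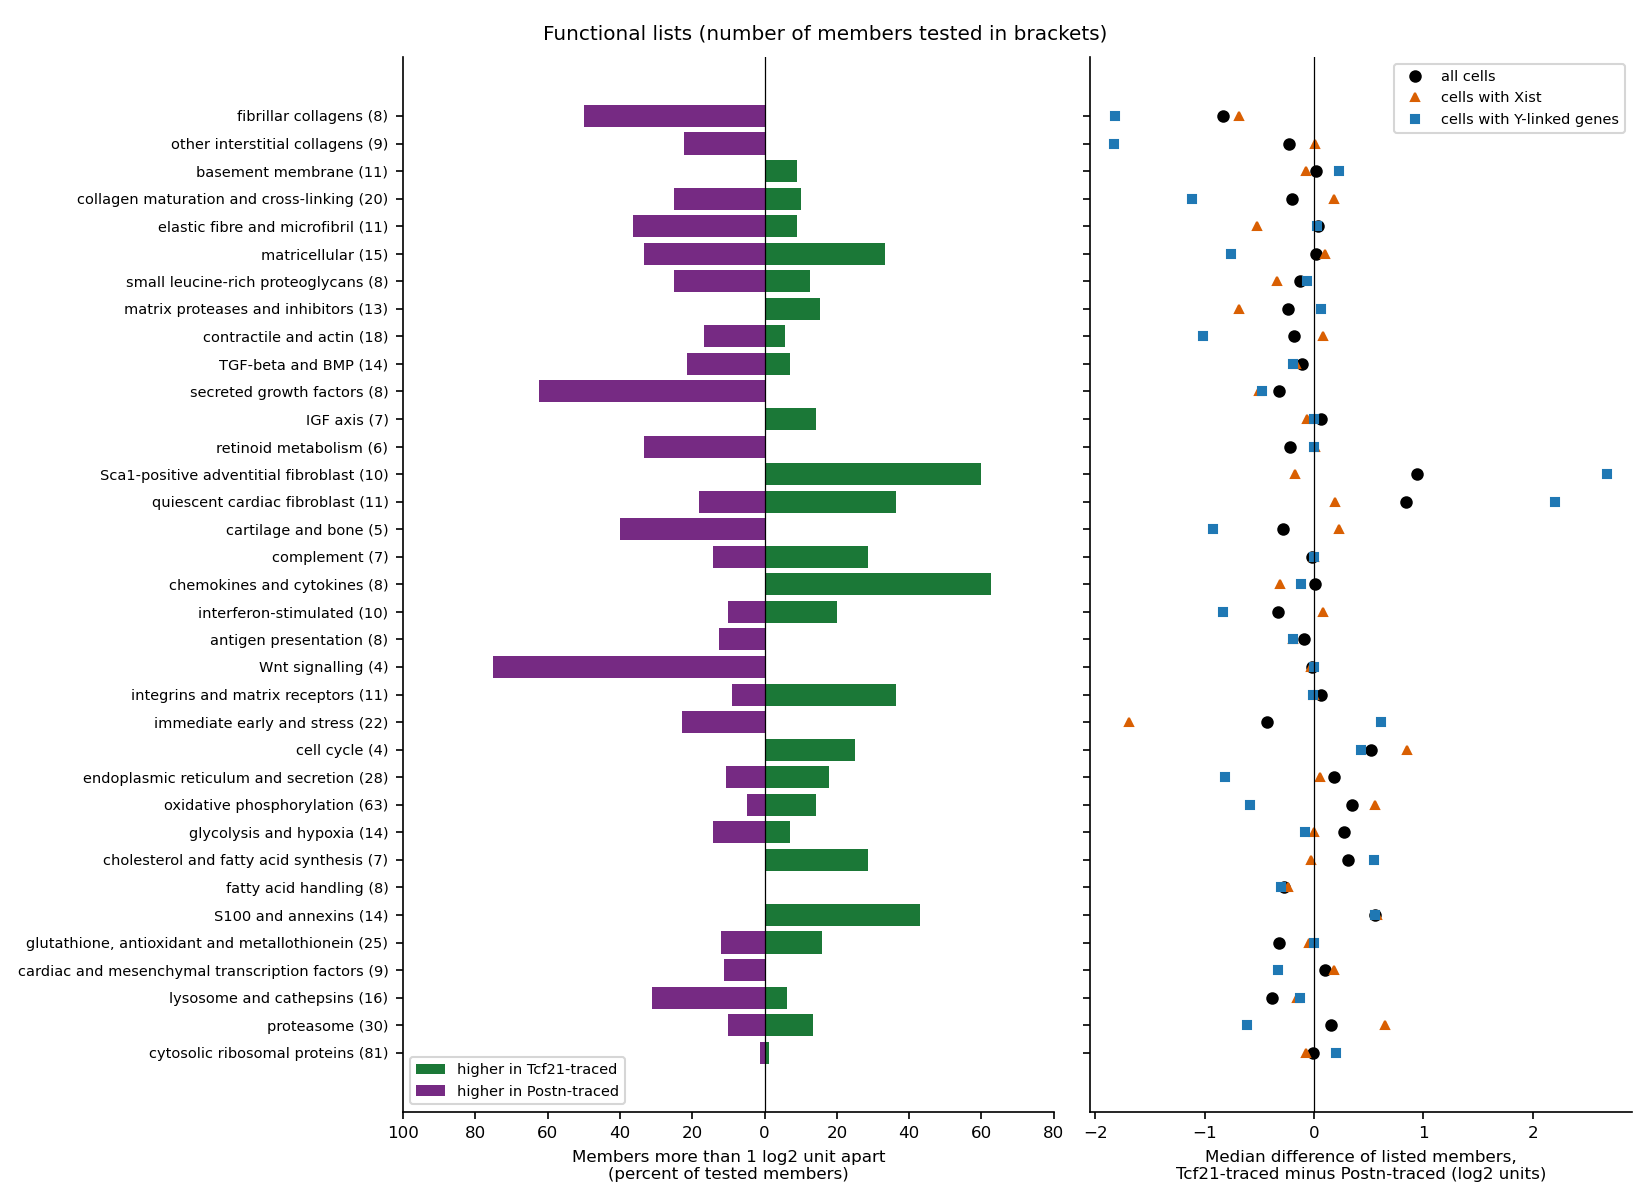
The 35 functional lists. Bars give members more than 1 log2 unit apart as percent of tested members, whose number is in brackets, toward each traced class, and symbols give the median difference of listed members in all cells, in cells with Xist and in cells with Y-linked genes. Sca1-positive adventitial genes, S100 proteins and annexins lean to the Tcf21-traced side and fibrillar collagens to the Postn-traced side. The first lies at -0.17 in cells with Xist and at 2.68 in cells with Y-linked genes.

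Cell-cycle genes set a few cells apart, a count made after the values were seen. Of the 33 genes of the list, 6 of 44 Tcf21-traced cells had at least 10 above 5 TPM (13.6%, interval 5.17% to 27.4%), with 14 to 31 genes each, and no other Tcf21-traced cell had more than 9. In Postn-traced cells the highest was 5 and 0 of 27 reached 10, which allows a share of up to 12.8%. The proliferation marker Mki67 was above 5 TPM in 6 Tcf21-traced and 0 Postn-traced cells, and Cdk1, the mitotic kinase, in 7 and 0. Among untraced Postn+ cells the same count was 5 of 19 in Nov4 (26.3%) and 0 of 6 in Jul29, and 0 of 24 Postn- cells of Jul29 reached it. Cells with many cell-cycle genes were thus found on the Nov4 chip with and without the Tcf21 label and were not detected on Jul29. The intervals of the traced classes overlap. The 6 cells had a median of 4473.5 detected genes, against 3134 in their class, though 1 of them had 2603, and Postn was above the class median in 3 of them.

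**Figure D4:**
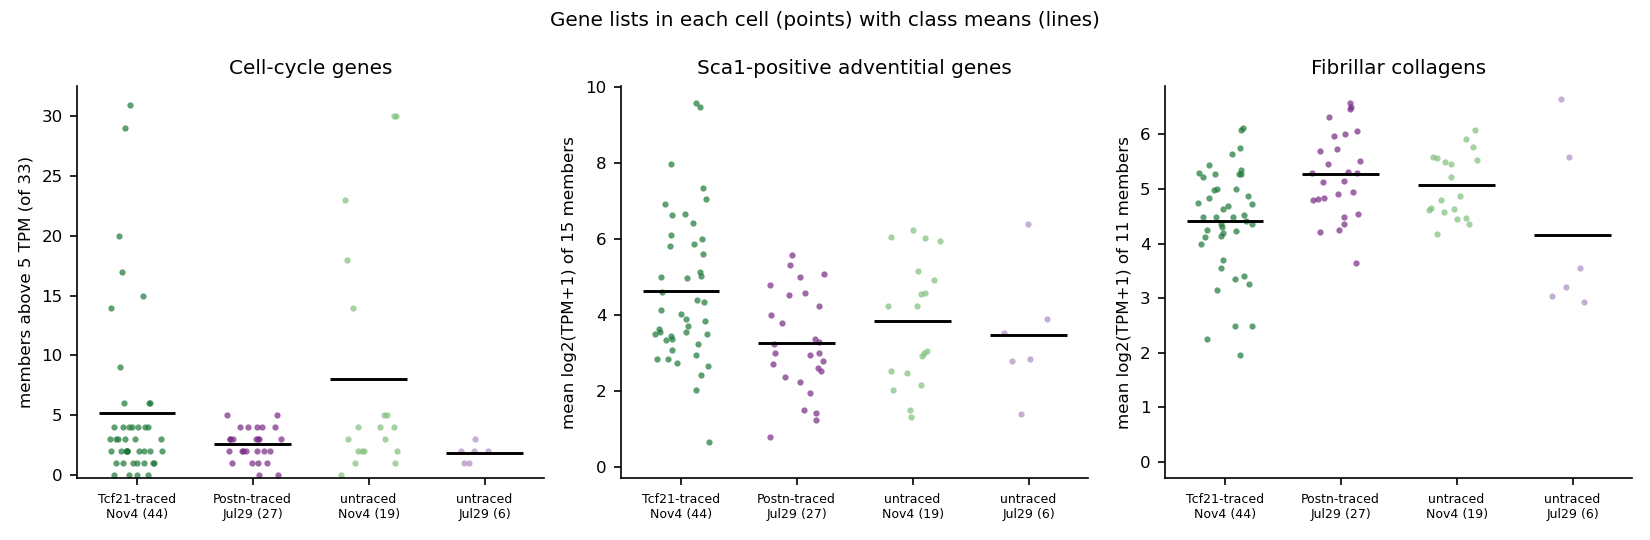
Members of the cell-cycle list above 5 TPM (left), and mean log2(TPM+1) over the Sca1-positive adventitial list (middle) and the fibrillar collagens (right), in each cell of the traced and untraced Postn+ classes. Points are cells and lines class means. Cells with at least 10 cell-cycle genes are in Nov4 classes, and 14 Tcf21-traced cells have an adventitial average above every Postn-traced cell.

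The sex-linked genes allow the comparison to be made within cells of each kind, 16 Tcf21-traced against 11 Postn-traced cells with Xist alone and 11 against 10 with Y-linked genes alone. These strata share no cells. The median gene differed by -0.03 in the first and by -0.61 in the second. The Postn-traced cells were deeper in both, with medians of 3565 detected genes against 3065 and of 3910 against 2852. All 30 named genes had the same direction in both strata, but they were chosen on the pooled cells, so this is a description. More than 2 apart in both were Ly6c1, S100a4, Adamtsl3, Smoc2, Slc43a3 and Klf10 on the Tcf21-traced side. On the Postn-traced side 12 of 15 were, all but Gucy1a3, AK205379 and AK210533.

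The size often differed between the strata. Ly6c1 was 2.03 higher in Tcf21-traced cells among cells with Xist and 6.86 higher among cells with Y-linked genes, where the Postn-traced mean was 0.00. Serpina3n differed by 0.06 among cells with Xist and by 6.49 among cells with Y-linked genes. Ptn was higher in Postn-traced cells by 4.53 and 8.60, Tnc by 2.64 and 7.07, and Cthrc1 by 3.69 and 7.95. S100a4 (3.29 and 3), Klf10 (2.51 and 2.42) and Mfap4 (4.36 and 5.02 toward Postn-traced cells) were close in both.

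Across all tested genes the strata had little in common, with a Pearson correlation of 0.12 and a Spearman correlation of 0.10. Of 198 genes more than 2 higher in Tcf21-traced cells with Xist, 52 were more than 1 higher in those with Y-linked genes (26.3%, against 13.1% of all tested genes) and 63 were more than 1 the other way (31.8%, against 38.9%). Of 267 genes more than 2 higher in Postn-traced cells with Xist, 136 were more than 1 higher in the Y-linked cells (50.9%, against 38.9%). Starting from the Y-linked cells, 63 of 195 genes of the Tcf21-traced side (32.3%, against 18.7%) and 223 of 812 of the Postn-traced side (27.5%, against 20.7%) were more than 1 the same way in cells with Xist. The shares more than 1 the other way were 13.5% for the 267 genes (against 13.1%), 16.4% for the 195 (against 20.7%) and 16% for the 812 (against 18.7%). So each share the same way stood above its background, and it passed 50% only for genes of the Postn-traced side taken from cells with Xist. These counts are over the 4877 genes tested in all cells.

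**Figure D5:**
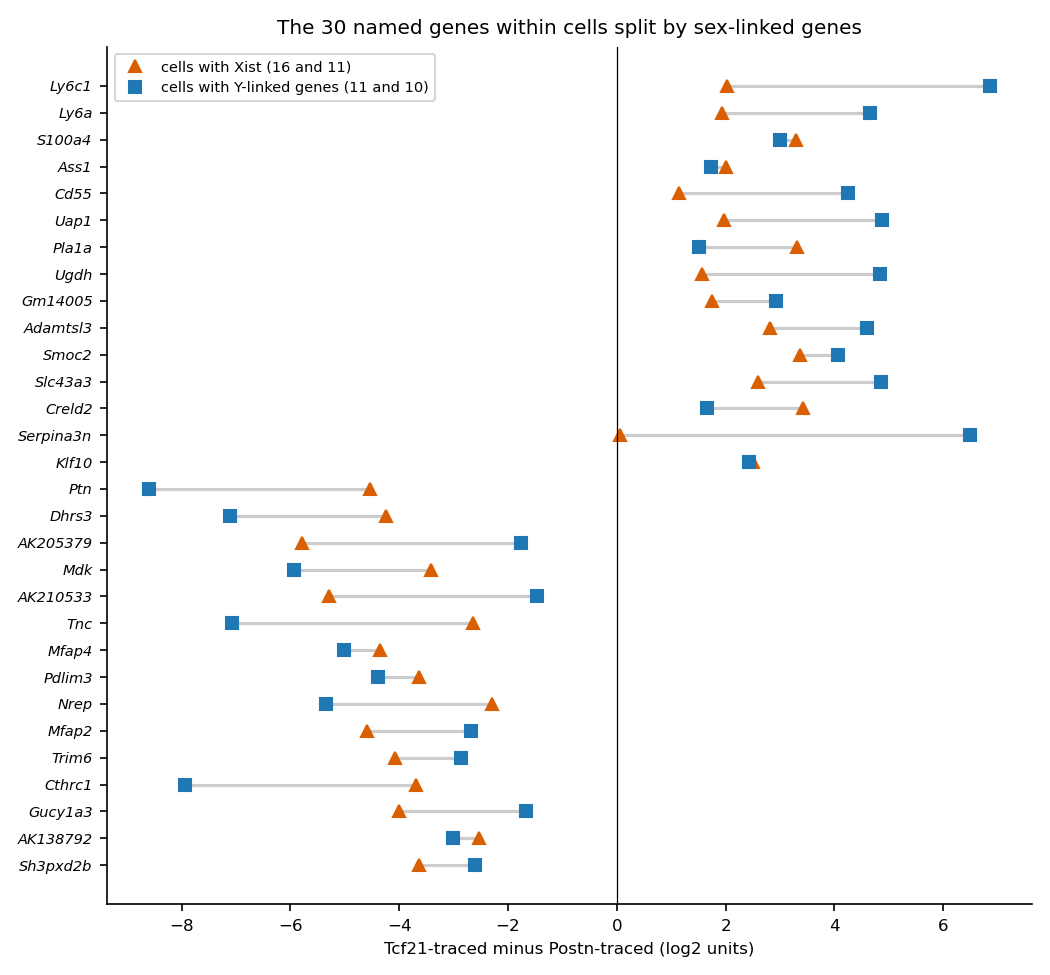
Difference of the 30 named genes, Tcf21-traced minus Postn-traced in log2 units, among cells with Xist alone (triangles) and cells with Y-linked genes alone (squares). Numbers in brackets are Tcf21-traced and Postn-traced cells. All 30 lie on the same side of 0 in both, from 0.06 for Serpina3n in cells with Xist to 6.86 for Ly6c1 in cells with Y-linked genes on the Tcf21-traced side.

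Among cells of 1 class, lists moved together in different ways. The quiescent list and the fibrillar collagens ran opposite across Tcf21-traced cells, with a Pearson correlation of -0.49 and a Spearman correlation of -0.48 over 44 cells, and less so across Postn-traced cells, at -0.26 and -0.18 over 27. In Tcf21-traced cells the quiescent average had a Pearson correlation of -0.44 with the genes detected and the collagens one of 0.53, so the number of genes detected moved with both. The adventitial and collagen averages had Pearson correlations of -0.20 in Tcf21-traced and -0.16 in Postn-traced cells, with Spearman correlations of -0.23 and -0.16. Postn and Cthrc1 went together in both classes, at Pearson 0.60 and Spearman 0.59 in Tcf21-traced cells and at 0.54 and 0.62 in Postn-traced cells. The number of genes detected moved with this pair too. In Tcf21-traced cells Postn had a Pearson correlation of 0.60 and Cthrc1 one of 0.74 with it, and in Postn-traced cells 0.44 and 0.47. Ly6a and Cthrc1 had little relation, at 0.04 and -0.11 in Tcf21-traced cells and at 0.03 and 0.02 in Postn-traced cells, so a high Sca1 RNA did not go with an absence of Cthrc1. Cells of a class share a chip and a mouse line.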

How the data were processed

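The authors deposited 1 table of log2 values of TPM with a pseudocount of 1, for 17171 genes in 185 cells, and per the submitters' notes reads were aligned to mm10 with Bowtie 1.0.0 and quantified with eXpress 1.5.1. The title of the table says FPKM and its header TPM; cells sum to between 999257 and 1000000, so the values were read as TPM. Its 3 columns without a sample were not used. No value was rescaled. Class values are means over cells, and no test was made.

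Tested genes were above 5 TPM in at least 25% of cells, averaged over the traced classes. Named genes are the 15 with the largest difference on each side among those above 5 TPM in at least 50% of cells of the higher class, with Postn, Tcf21, Pdgfra, Col1a1 and Acta2 always, members of lists more than 1 apart, marker and sex-linked genes, and genes of the cell-cycle count. Transcripts with AK names may be named without a role. The 35 functional lists hold 804 genes written from general knowledge. The members and lists were chosen with earlier results of these data known. Code was tested on simulated data. The scripts ran in Python 3.11.15 with SciPy 1.17.1, pandas 2.3.3 and NumPy 2.4.6, and figures were drawn in Matplotlib 3.10.9.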

Additional observations from a re-analysis of the deposited data

Results flagged for a closer look

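In the 6 untraced Postn+ cells of Jul29, 73 values were looked at for a cell far from the other 5, and 12 were set apart by the size of the gap to the nearest cell. By chance this rule sets apart about 1 in 20 groups of values, and genes that are at 0 in most cells are set apart more easily. None of the differences was tested. Site numbers are positions on the chip. Site 72 was set apart for Ly6c1 at 8.42, Klf10 at 4.68, Tnc at 6.62 and Gucy1a3 at 7.62, with 0 in the nearest cell, and for Ugdh at 5.68 with 1.70 in the nearest. It was the deepest of the 6 cells, with 3772 detected genes. Site 82 was set apart for Ass1 at 3.33 and Pdlim3 at 5.67, with 0 in the nearest cell, and site 47 for Sh3pxd2b at 3.73, with 0.39 in the nearest. Site 77 was set apart 4 times. Its mean over Schwann cell markers was 7.31 against 0, over small leucine-rich proteoglycans 1.35 against 4.98 in the nearest cell, over TGF-beta and BMP genes 0.99 against 2.55, and over cytosolic ribosomal proteins 5.16 against 8.70.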

How the results depend on the processing

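Differences of capture, mouse line and tamoxifen schedule cannot be told apart, cells are not tied to mice, and the untraced Jul29 class has 6 cells. No paired analysis was possible because cells carry only chip positions. Of 595 values of named genes under the alternatives, 555 lay within 1 SD between cells of the reported value. Another 27 lay further off and 13 were counted as turned in direction. The cause was not tested. This SD is wide, so Cthrc1 at -0.70 in the shared depth range and Serpina3n at 0.06 in cells with Xist count as within it. So do some values with the other sign, such as those of Acta2 and Tcf21 in the shared depth range. The 13 counted as turned were Ass1 (-0.47 minus the untraced Postn+ difference, -0.37 minus that of all untraced cells), Ugdh (-1.72 minus the untraced Postn+ difference, -0.71 with both centred, -0.54 also without the cell with Schwann markers), Gm14005 (-0.39) and Creld2 (-0.10) minus that of all untraced cells, Serpina3n (-0.43, -1.11 and -0.46 minus the untraced Postn+, minus all untraced, and centred without that cell) and AK138792 (0.14, 1.16 and 1.10 minus the untraced Postn+, centred, and centred without that cell). Of 595 list medians, 537 lay within 1 SD of the cell averages, some of them with the other sign, and of 140 shares of cells 120 lay within their interval. Genes more than 2 higher in Tcf21-traced cells, 51 as reported, were 310 with medians over cells, 172 with a pseudocount of 0.1, 16 with 5, 28 with genes above 5 TPM in at least 50% of cells, 374 among cells in the shared depth range, 181 minus the untraced Postn+ difference, 112 minus that of all untraced cells, 205 in cells with Xist and 205 in cells with Y-linked genes (with the filter redone within them, 4965 and 4561 tested genes), 506 with both differences centred and 570 also without the cell with Schwann markers. In the same order those more than 2 higher in Postn-traced cells, 96 as reported, were 532, 338, 21, 60, 293, 1299, 956, 285, 816, 559 and 562, and 248 as the mean of the Xist and Y-linked cells. Genes more than 1 higher in Tcf21-traced cells, 409 as reported, were 730 with medians over cells, 731 with a pseudocount of 0.1, 193 with 5, 209 under the 50% filter, 1174 in the shared depth range, 900 in cells with Xist, 659 in cells with Y-linked genes, and 1255 and 1373 with both centred, the latter without the cell with Schwann markers. Genes more than 1 higher in Postn-traced cells, 720 as reported, were 1197 with a pseudocount of 0.1, 319 with 5, 351 under the 50% filter, 2424 minus the untraced Postn+ difference, 2230 minus that of all untraced cells, 1803 in cells with Y-linked genes, 1153 as the mean of the Xist and Y-linked cells, and 1284 and 1294 with both centred. Of genes more than 2 apart, 34.7% were higher in Tcf21-traced cells, 56.1% in the shared depth range, 51.1% with the 39 Tcf21-traced cells that had Postn, 12.2% minus the untraced Postn+ difference and 20.1% in cells with Y-linked genes. No cell was under 50% of the median depth of its capture, so that filter left out none.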

Other observations

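A list of enzymes and partners of UDP-sugars and hyaluronan was written after Uap1 and Ugdh had been seen, so its values are a description. Of its 14 listed genes 10 were tested, 7 were more than 1 higher in Tcf21-traced cells and none in Postn-traced cells. Beside Uap1 and Ugdh these were Gfpt2, the first enzyme of hexosamine synthesis (2.60), the hyaluronan-binding proteoglycan Vcan (1.67), the receptor Cd44 (1.27), Gnpnat1, an acetyltransferase of the same pathway (1.18), and the synthase Has1 (1.08). Averaged over the list, Tcf21-traced cells were at 1.17, 3.78 and 6.52 (lowest, median, highest) and Postn-traced cells at 0.25, 2.79 and 5.77, with wide overlap. The median difference was 1.04, with -0.09 in cells with Xist and 1.56 in cells with Y-linked genes.

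Mdk and Tnc were found together in 16 of 27 Postn-traced cells and in 5 of 44 Tcf21-traced cells. The proteasome list had 4 of 30 tested genes more than 1 higher in Tcf21-traced and 3 in Postn-traced cells, against 8.39% and 14.8% of all tested genes. Psmd6, a subunit of its regulatory cap, was 2.50 higher in Tcf21-traced cells and Psma2, a core subunit, 1.78 higher in Postn-traced cells. Relative to the median gene, Psmd6 was also 2.85 higher in untraced Nov4 cells, and Psma2 was 0.61 higher there. The glutathione, antioxidant and metallothionein list had 4 of 25 tested genes more than 1 higher in Tcf21-traced and 3 in Postn-traced cells, against the same background shares. Sod3, which removes superoxide outside the cell, was 2.39 higher in Tcf21-traced cells. Prdx5, a peroxiredoxin, was 2.17 higher in Postn-traced cells. Relative to the median gene, Sod3 was within 1 between the untraced Postn+ cells, and Prdx5 was 3.03 higher in untraced Nov4 cells, opposite to its traced difference.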
